A study of Mus musculus with 12 samples.

Results

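The genes of glucose uptake and glycolysis were followed in mice with extra MED13, a subunit of the Mediator complex, in the heart (MED13cTg). The group holds 31 genes of the 23042 entries in the expression tables. They were listed from biochemistry, though with earlier results of these data known. They cover glucose transporters, every step from hexokinase to lactate dehydrogenase with its isoforms and the PFKFB enzymes. The muscle fructose bisphosphatase, lactate transporters and the first enzyme of the pentose phosphate pathway complete the list. All 31 were found in both tables, with pyruvate kinase listed under its older symbol Pkm2. RNA was sequenced from the ventricles and the white fat (WAT) of the epididymis from 3 WT and 3 MED13cTg mice per tissue, which were male C57BL/6 littermates, 6 weeks of age by the labels, fed freely on normal chow and sampled in the late afternoon. The study asked how a transgene active in the heart alters gene expression there and in fat. The promoter that drives the transgene is not given in the sources used here. Values are FPKM, fragments scaled by transcript length and by the mapped fragments of the library, so levels may be compared between genes per length, while how deeply a library was sequenced is not known.

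Glucose enters cells through facilitative transporters, is trapped as glucose 6-phosphate by hexokinase and is broken down to pyruvate, which lactate dehydrogenase exchanges with lactate. Phosphofructokinase is the main control point, and fructose 2,6-bisphosphate made by the PFKFB enzymes is its strongest activator. Heart and skeletal muscle use their own isoforms of several of these enzymes and, like fat, carry the transporter GLUT4 that insulin moves to the cell surface.

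The transgene was visible in every MED13cTg ventricle library. Med13 was at 13.1, 10.6 and 11.5 in the WT ventricles and at 263, 181 and 204 FPKM in MED13cTg hearts, a ratio of means of 18.4, whereas in WAT it was at 10.9, 9.43 and 9.99 in WT and 7.84, 11 and 10.7 FPKM in MED13cTg, with overlapping groups. Rank correlations between ventricle libraries ranged from 0.944 to 0.969. In WAT, MED13cTg replicates 1 and 2 stood apart, with rank correlations to the other libraries of 0.350 to 0.494 and 0.350 to 0.852, while pairs of the remaining libraries reached 0.972. Summed cardiomyocyte markers such as Myh6 and Myl2 lay between 62341 and 90918 FPKM in the ventricle libraries.

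Ventricles carried the muscle forms of the glycolytic enzymes at high levels in both genotypes, and no member passed the test between genotypes. The 28 members that averaged 1 FPKM or more were fitted with limma among 12589 genes. With Benjamini-Hochberg adjustment, 0 members were higher and 0 lower in MED13cTg, against 0.0238% and 0.0318% of all genes, and the lowest adjusted p of a member was 0.803. At an unadjusted p under 0.05, 0 members were higher, against 1.69% of all genes, and 2 were lower, against 3.03%. With limma array weights, which let libraries count unequally, these became 2 higher and 6 lower of the 28 members. Of the 12589 genes, 1638 were then higher and 1860 lower. The higher members were thus a smaller part of their set than of all genes, and the lower ones a larger part. Without any overlap between the 3 WT and 3 MED13cTg libraries, 0 members were higher, against 3.46% of all genes, and 4 were lower, or 14.3% of the 28, against 5.85%. These 4 were Slc2a1, Hk2, Pfkp and Pgam1. By sign alone 12 members were higher and 16 lower, with a median log2 fold change of -0.056 beside -0.014 over all genes. With 3 libraries per genotype an exact test of 1 gene cannot give a p below 0.1.

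**Figure D1:**
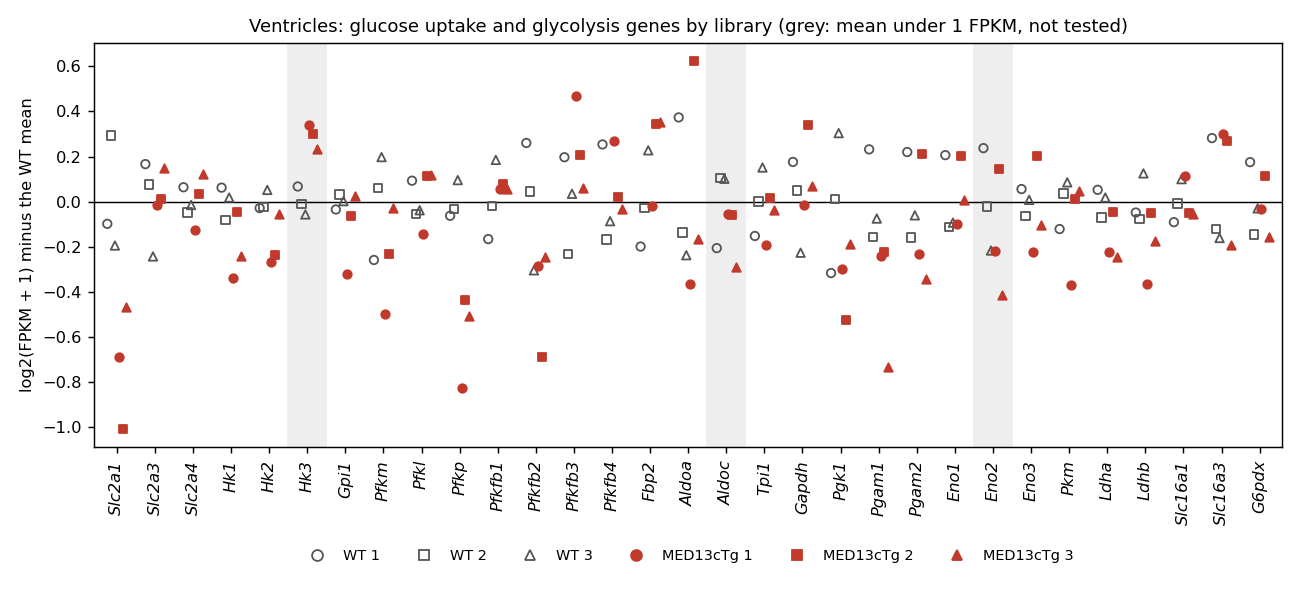
Each point is 1 ventricle library of 1 gene, as log2(FPKM + 1) minus the mean of the 3 WT libraries, with WT open and MED13cTg filled. The filled points of Slc2a1 and Pfkp all lie below the open ones, and most other genes have mixed points.

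Slc2a1 encodes GLUT1, the transporter of basal glucose uptake. It was at 7.03, 9.53 and 6.51 in the WT ventricles and 4.33, 3.28 and 5.22 FPKM in MED13cTg hearts. All 3 MED13cTg libraries were below all 3 WT libraries, and the ratio of means was 0.556. The limma log2 fold change was -0.72 ± 0.19 (SE), with an unadjusted p of 0.00672 and an adjusted p of 0.945. The gene lies at chr4:118781349-118809934 on mm9 as the table gives it. Slc2a4, which encodes the insulin-responsive transporter GLUT4, was at 190.2, 176 and 180.0 in WT and 167, 186 and 198 FPKM in MED13cTg hearts. The genotypes of Slc2a4 overlapped throughout, with a log2 fold change of 0.011 ± 0.12 (SE). Slc2a3, the neuronal transporter GLUT3, was close to the filter at 1.81, 1.64 and 1.12 in WT and 1.48, 1.53 and 1.78 FPKM in MED13cTg.

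Pfkp, the platelet type of phosphofructokinase, was at 26.2, 26.7 and 29.3 in WT and 15, 20 and 18.9 FPKM in MED13cTg hearts. The highest MED13cTg library was below the lowest WT library, and the ratio of means was 0.656. The limma log2 fold change was -0.59 ± 0.13 (SE), with an unadjusted p of 0.00306 and an adjusted p of 0.803. Its locus in the table is chr13:6547402-6647970 on mm9. Pfkm, the muscle type and by far the most abundant of the 3 subunits, was at 396, 494 and 543 in WT and 335, 403 and 464 FPKM in MED13cTg. Pfkl, the liver type, was at 43.7, 39.3 and 39.8 in WT and 37, 44.3 and 44.5 FPKM in MED13cTg. Both overlapped between genotypes, with log2 fold changes of -0.25 ± 0.19 (SE) and 0.030 ± 0.12 (SE). Bulk RNA cannot tell fewer cells of a type from less RNA per cell, and this holds for every gene here.

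Hk2, the insulin-responsive hexokinase of muscle and fat, was at 64.6, 64.8 and 68.3 in WT and 54.6, 55.7 and 63.4 FPKM in MED13cTg hearts. The groups did not overlap, by a margin of 63.4 against 64.6 FPKM, and the log2 fold change was -0.19 ± 0.11 (SE) with an adjusted p of 0.966. Hk1, the hexokinase found in most tissues, was at 44.2, 39.9 and 42.8 in WT and 33.2, 40.9 and 35.6 FPKM in MED13cTg. Its 2 lowest libraries were both MED13cTg and its log2 fold change was -0.21 ± 0.12 (SE). Hk3, mostly a leukocyte hexokinase, was under the filter and not tested, at 0.738, 0.646 and 0.595 in WT and 1.1, 1.04 and 0.947 FPKM in MED13cTg, the higher values being the MED13cTg ones. Summed macrophage markers such as Cd68 were at 294, 231 and 210.2 in WT and 345, 327 and 245 FPKM in MED13cTg hearts, and their part in the Hk3 values was not tested.

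Pgam1, the phosphoglycerate mutase of most tissues, was at 17.2, 12.9 and 13.7 in WT and 12.1, 12.3 and 8.3 FPKM in MED13cTg hearts. The groups did not overlap, and the log2 fold change was -0.40 ± 0.18 (SE) with an adjusted p of 0.966. Pgam2, its muscle isoform, was far higher at 991, 762 and 816 in WT and 724, 987 and 670.3 FPKM in MED13cTg, with overlapping genotypes. Near-identical processed copies exist for several of these genes, Pgam1, Gapdh, Pgk1, Eno1, Tpi1, Aldoa, Ldha and Pkm among them, so their levels are uncertain. For Gapdh, usually among the most abundant glycolytic messages, the table gives only 24.3, 22.2 and 18.2 in WT and 21.2, 27.4 and 22.5 FPKM in MED13cTg hearts.

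**Figure D2:**
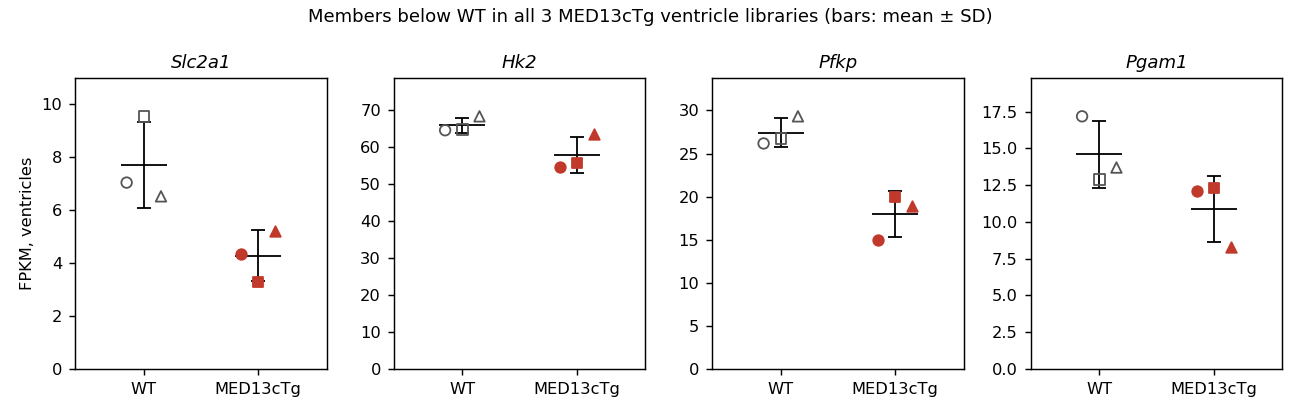
FPKM of Slc2a1, Hk2, Pfkp and Pgam1 in each ventricle library, with the mean and SD of 3 mice per genotype, on axes that start at 0. In each panel every MED13cTg point is below every WT point, with the gap narrowest for Hk2 and Pgam1.

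The ventricle libraries fell into a pair of clusters by rank correlation, one holding WT replicate 1 with MED13cTg replicates 1 and 2 and the other holding the remaining 3 libraries. The cluster of WT replicate 1 has only 1 WT library, and the other has only 1 MED13cTg library. Within both clusters Slc2a1 and Pfkp were lower in MED13cTg. For these genes, and for Hk2 and Pgam1, this sign was fixed in advance, since their genotypes did not overlap. For Slc2a1 the log2 differences were -0.75 in the cluster of WT replicate 1 and -0.52 in the other. For Pfkp they were -0.57 and -0.54 in the same order. In that order too, Hk2 differed by -0.22 and -0.068 and Pgam1 by -0.46 and -0.62. Over all 28 tested members, 16 had the same sign in both clusters. Summed atrial myocyte markers such as Nppa and Myl4 were at 743, 493 and 447 in WT and 996, 2443 and 1160.5 FPKM in MED13cTg hearts. All 3 MED13cTg sums were above the WT sums, a separation that was that of Nppa, at 564, 408 and 368 in WT and 892, 1773 and 1088 FPKM in MED13cTg hearts. Myl4 was at 96.8, 59.6 and 34.4 in WT and 37.6, 245 and 28.5 FPKM in MED13cTg, and Myl4, Myl7 and Sln overlapped between genotypes and were highest in MED13cTg replicate 2. Their part in the member values was not tested.

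The PFKFB enzymes set the level of fructose 2,6-bisphosphate. Pfkfb2, the heart isoform, was at 68.7, 59 and 46.2 in WT and 46.8, 35.1 and 48.1 FPKM in MED13cTg hearts, a log2 fold change of -0.41 ± 0.19 (SE). Its highest MED13cTg library at 48.1 FPKM exceeded only the lowest WT library at 46.2 FPKM. Pfkfb3, the inducible isoform, was at 5.75, 4.01 and 5.03 in WT and 7.14, 5.78 and 5.14 FPKM in MED13cTg, and its log2 fold change of 0.24 ± 0.16 (SE) was the highest of the tested members. Pfkfb1, first known from liver and muscle, was at 23.4, 26 and 30.1 in WT and 27.4, 27.8 and 27.4 FPKM in MED13cTg, and Pfkfb4 ranged from 1.94 to 2.97 FPKM over the 6 libraries. Fbp2, the muscle enzyme that runs the phosphofructokinase step backwards, was at 27.4, 30.9 and 37.1 in WT and 31.2, 40.3 and 40.6 FPKM in MED13cTg. None of these 5 passed the adjusted test.

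By the FPKM listed, Aldoa, Eno3 and Ldhb of the lower steps were the most abundant members in ventricles, and the genotypes of each overlapped. The levels of Aldoa, Gapdh and other members with near-identical copies are uncertain, and so is this order. Aldoa, muscle aldolase, was at 3223, 2264 and 2109.7 in WT and 1932, 3832 and 2219 FPKM in MED13cTg, so that its highest and its lowest library were both MED13cTg. Eno3, muscle enolase, was at 1885, 1735 and 1823 in WT and 1555, 2085 and 1689 FPKM in MED13cTg. Ldhb, the heart subunit of lactate dehydrogenase, was at 1602, 1570.5 and 1807 in WT and 1286, 1602 and 1468 FPKM in MED13cTg. The ranks of Aldoa, Eno3 and Ldhb by mean among all entries of the table were 51, 73 and 83.

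Among the other lower steps, Ldha, the muscle subunit, was at 535, 491 and 522 in WT and 441, 499 and 436 FPKM in MED13cTg hearts. Pgk1, phosphoglycerate kinase, was at 81.2, 102 and 125 in WT and 82.1, 70.1 and 88.7 FPKM in MED13cTg, and Tpi1, triose phosphate isomerase, at 493, 548 and 609 in WT and 479.5, 554 and 534 FPKM in MED13cTg. The log2 fold changes were -0.17, -0.34 and -0.071, all with overlapping groups. Gpi1, which converts glucose 6-phosphate to fructose 6-phosphate, and Pkm, pyruvate kinase, ranged over the 6 libraries from 300.0 to 384 FPKM and from 458 to 628 FPKM. The Pkm entry is for the whole gene and does not separate the M1 and M2 forms. MED13cTg replicate 1 was the lowest of the 6 ventricle libraries for 12 of the 28 tested members, beside 2214 of all 12589 genes.

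Eno1, the enolase of most tissues, ranged from 35.2 to 44.2 FPKM over the ventricle libraries. Slc16a1, the lactate transporter MCT1, was at 59.5, 63.1 and 68.1 in WT and 68.7, 61.3 and 61 FPKM in MED13cTg. The log2 fold change of Slc16a1 was 0.0022 ± 0.11 (SE), the nearest to 0 of the tested members. Slc16a3, the transporter MCT4 of lactate-exporting cells, ranged from 1.1 to 1.96 FPKM, and G6pdx, which opens the pentose phosphate pathway, from 4.42 to 5.82 FPKM. Aldoc and Eno2, forms known best from the brain, were under the filter and not tested, with highest values of 0.314 and 1.37 FPKM, and Aldoc was listed at 0 in MED13cTg replicate 3.

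The bases in front of the start sites of Slc2a1, Hk2, Pfkp and Pgam1 are shown because these are the members whose ventricle values did not overlap. They come from RefSeq's annotation of GRCm38.p6, a later build than the mm9 of the tables, and 29 of the 31 members had an entry, Slc2a3 and Slc2a4 being the exceptions. Each line gives the 250 bases before the start, read 5′ to 3′ on the gene's strand. Capitals mark ACGTG or its reverse complement, the core of the hypoxia response element that HIF-1 binds and that many glycolytic genes carry.
Slc2a1, plus strand, chr4:119108495-119108744: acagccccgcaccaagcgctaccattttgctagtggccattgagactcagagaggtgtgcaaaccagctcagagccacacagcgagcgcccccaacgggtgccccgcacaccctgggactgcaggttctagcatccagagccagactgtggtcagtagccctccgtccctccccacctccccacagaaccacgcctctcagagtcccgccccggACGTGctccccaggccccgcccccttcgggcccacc
Hk2, minus strand, chr6:82774455-82774704: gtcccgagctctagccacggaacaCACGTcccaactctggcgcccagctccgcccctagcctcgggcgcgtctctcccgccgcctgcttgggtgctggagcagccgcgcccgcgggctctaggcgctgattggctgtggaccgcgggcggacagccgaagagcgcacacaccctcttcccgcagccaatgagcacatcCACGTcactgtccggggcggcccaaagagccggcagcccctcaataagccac
Pfkp, minus strand, chr13:6648772-6649021: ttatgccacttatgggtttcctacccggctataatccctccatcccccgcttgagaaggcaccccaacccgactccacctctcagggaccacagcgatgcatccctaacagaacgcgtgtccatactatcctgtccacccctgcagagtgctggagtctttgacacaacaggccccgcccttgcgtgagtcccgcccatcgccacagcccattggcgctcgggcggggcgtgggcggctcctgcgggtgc
Pgam1, plus strand, chr19:41911621-41911870: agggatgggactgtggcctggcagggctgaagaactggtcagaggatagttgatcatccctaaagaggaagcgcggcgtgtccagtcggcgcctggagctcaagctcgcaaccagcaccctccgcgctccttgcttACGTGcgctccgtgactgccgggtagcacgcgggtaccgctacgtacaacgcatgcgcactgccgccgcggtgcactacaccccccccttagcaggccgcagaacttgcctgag
The core occurred 1 time for Slc2a1, 2 times for Hk2, 1 time for Pgam1 and 0 times for Pfkp in these windows. Over all start sites of the members, 18 of 46 windows held it, or 39.1%, beside 16.6% of 32851 windows of the same length in the RefSeq table. The E-box CACGTG, each of which also holds the core, was in 6 of the 46 windows, or 13.0%, beside 6.02% of all. The GC box GGGCGG was in 21, or 45.7%, beside 32.7%. Both strands were searched, and a match is a run of letters and not a shown binding site.

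In WAT no member passed the test either, and for 16 of the 30 tested members MED13cTg replicates 1 and 2 were at opposite ends of the 6 libraries. The fit held 30 members among 14967 genes, Hk3 being under the filter. With adjustment, 0 members were higher and 0 lower, against 0% and 0.0134% of all genes, and the lowest adjusted p of a member was 0.738. The 2 genes called lower over the whole table fell to 0 with the replicate number as a block, which left the members' counts at 0. At an unadjusted p under 0.05 there were 0 members higher and 0 lower, against 0.14% and 1.11% of all genes. Without overlap between genotypes 0 members were higher, against 4.88% of all genes, and 1 was lower, or 3.33% of the 30, against 7.8%. By sign alone 12 members were higher and 18 lower, with a median log2 fold change of -0.099 beside 0.012 over all genes.

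MED13cTg replicate 1 was the highest of the 6 WAT libraries for 9 members and the lowest for 16, beside 6024 and 5566 of all 14967 genes. Replicate 2 was the highest for 12 and the lowest for 9, beside 3927 and 4943 of all genes. In 16 of 30 members, or 53.3%, these libraries were at both ends of the range, beside 39.3% of all genes. Replicate 3 was at neither end for any tested member, beside 10.7% of all genes for which it was highest or lowest. It lay inside the WT range for 24 of 30 members, or 80%, beside 55.8% of all genes. For those 16 members the WT libraries lay between MED13cTg replicates 1 and 2.

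**Figure D3:**
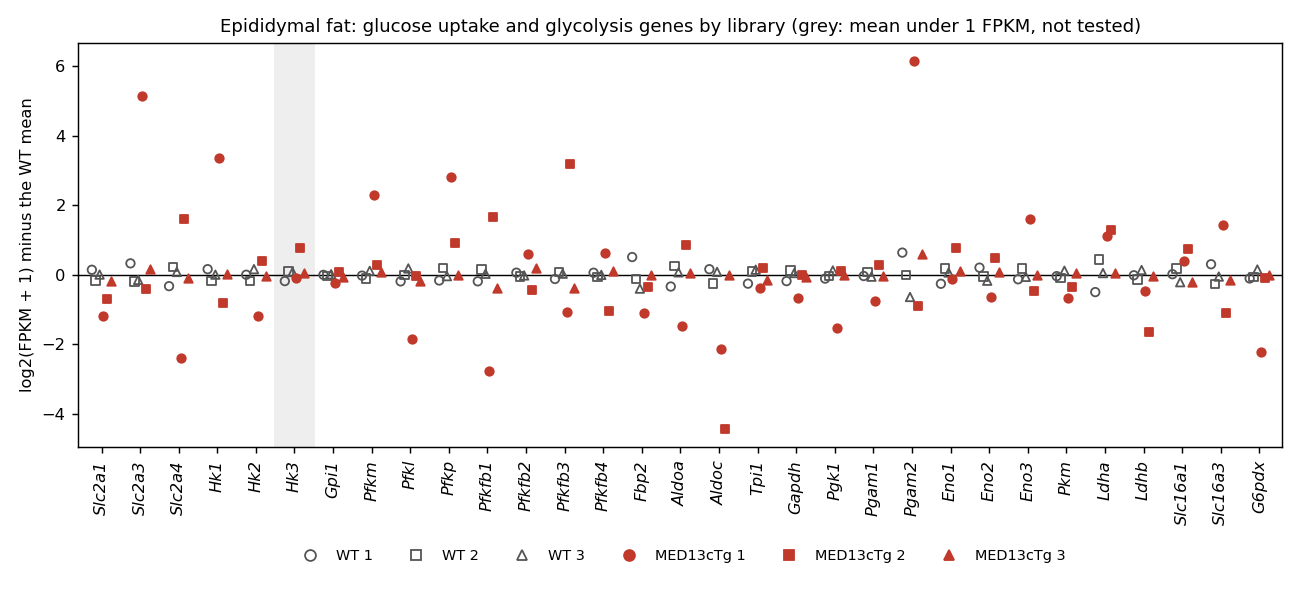
Each point is 1 WAT library of 1 gene, as log2(FPKM + 1) minus the mean of the 3 WT libraries, with WT open and MED13cTg filled. MED13cTg replicates 1 (circles) and 2 (squares) take the extremes, with Slc2a3 and Pgam2 farthest up in replicate 1 and Aldoc farthest down in replicate 2.

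Marker sums also set these libraries apart. Mature adipocyte markers such as Adipoq and Lep summed to 13490.4, 32117 and 22048 in WT and 1304, 80171 and 17380.3 FPKM in MED13cTg. Epididymis markers such as Lcn5 and Lcn6 summed to 79469, 76103 and 98956 in WT and 11723, 237 and 77399.7 FPKM in MED13cTg. Testis germ cell markers such as Prm1 and Prm2 summed to 213, 228 and 303 in WT and 13638, 5.83 and 344 FPKM in MED13cTg. In every library but MED13cTg replicate 2 the epididymis sum was thus above the adipocyte sum. These lists hold 11 and 9 genes, and their sums do not measure how much of a library came from each tissue. By these sums, MED13cTg replicate 1 held the fewest adipocyte and the most germ cell messages. MED13cTg replicate 2 held the most adipocyte messages and the fewest of the epididymis and of germ cells. Of the smaller lists, endothelial markers such as Pecam1 summed to 65, 131 and 91.9 in WT and 13.9, 301 and 81.4 FPKM in MED13cTg, macrophage markers to 89.1, 188 and 164 in WT and 63.8, 358 and 124 FPKM in MED13cTg, and red cell markers to 146, 547 and 269 in WT and 29, 330.0 and 183 FPKM in MED13cTg. The fast skeletal muscle sum was between 11.6 and 84.3 FPKM and the atrial sum between 7.06 and 39.3 FPKM, with Bmp10 listed at 0 throughout. The part of these cells in the member values was not tested.

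**Figure D4:**
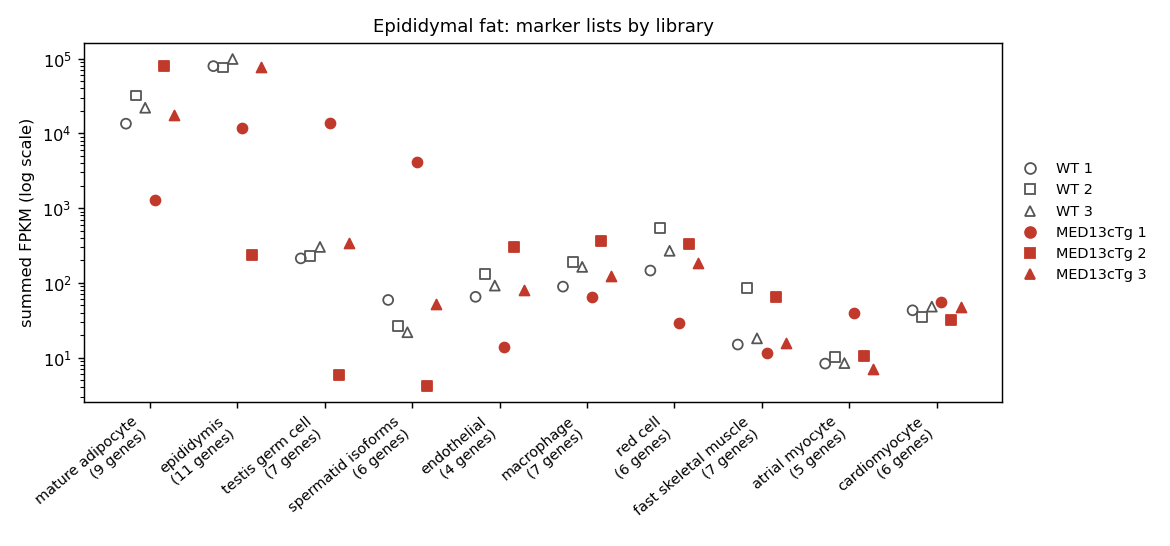
Summed FPKM of each marker list in each WAT library, on a log axis, with WT open and MED13cTg filled. MED13cTg replicate 1 is lowest for adipocyte and highest for germ cell and spermatid lists, and replicate 2 is highest for adipocyte and lowest for epididymis and germ cell lists.

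Spermatids use their own forms of glycolytic enzymes, encoded by Ldhc, Pgk2, Gapdhs, Aldoart1, Aldoart2 and Eno4. The sum of these 6 genes was 59.1, 26.2 and 21.8 in WT libraries and 4207, 4.23 and 51.7 FPKM in MED13cTg libraries of WAT. Ldhc alone, the sperm lactate dehydrogenase, was at 40, 15.7 and 7.52 in WT and 3242, 1.63 and 33 FPKM in MED13cTg, so that replicate 1 held more Ldhc than any member. Pgk2, the sperm phosphoglycerate kinase, was at 364 FPKM and Gapdhs at 415 FPKM in replicate 1, with WT values of 6.22, 2.99 and 3.77 FPKM and 7.74, 4.75 and 8.57 FPKM. In the ventricles the same 6 genes summed to between 4.12 and 8.81 FPKM.

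Some members were high in MED13cTg replicate 1 alone. Slc2a3 was at 15.8, 10.6 and 11.1 in WT and 475, 9.07 and 14 FPKM in MED13cTg fat. Pgam2 was at 13.8, 8.43 and 5.11 in WT and 675, 4.13 and 13.3 FPKM in MED13cTg, and Hk1 at 20.3, 15.8 and 18.1 in WT and 194, 9.81 and 18.3 FPKM in MED13cTg. In replicate 1 these 3 genes were 38, 74 and 10.8 times the WT mean, while in replicate 2 they were below every WT library. GLUT3, the product of Slc2a3, is the transporter of sperm as well as of neurons.

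Pfkm was at 11.9, 11.2 and 13.2 in WT and 63.9, 14.8 and 12.8 FPKM in MED13cTg fat, and Pfkp at 8.26, 10.8 and 9.1 in WT and 71.6, 18.6 and 9.27 FPKM in MED13cTg. Eno3 was at 21.9, 27.3 and 23.1 in WT and 74.8, 17.2 and 24.2 FPKM in MED13cTg. Pfkp, which did not overlap downward in ventricles, was thus above WT in MED13cTg replicates 1 and 2 of WAT and inside the WT range in replicate 3. The log2 fold change of Pfkp in WAT was 1.24 ± 0.72 (SE), with an adjusted p of 0.738. Slc16a3 was at 5, 3.04 and 3.7 in WT and 12.2, 1.25 and 3.38 FPKM in MED13cTg. Pfkfb4 was at 10.4, 9.42 and 9.91 in WT and 16, 4.3 and 10.7 FPKM in MED13cTg, and Pfkfb2 at 11.3, 10.3 and 10.6 in WT and 16.6, 7.66 and 12.4 FPKM in MED13cTg. All 3 were highest in replicate 1 and lowest in replicate 2.

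Other members followed the opposite order, low in replicate 1 and high in replicate 2. Slc2a4 was at 19.6, 29.3 and 26.3 in WT and 3.89, 77 and 23.1 FPKM in MED13cTg fat. Pfkfb3 was at 28.5, 32.8 and 31.8 in WT and 14.1, 294 and 23.6 FPKM in MED13cTg, and Pfkfb1 at 28.3, 36 and 33.1 in WT and 3.94, 105 and 24.8 FPKM in MED13cTg. In replicate 2 Slc2a4, Pfkfb3 and Pfkfb1 were 3.07, 9.48 and 3.24 times the WT mean. Aldoa was at 719.6, 1085 and 955 in WT and 328, 1662 and 939 FPKM in MED13cTg, and Hk2 at 27.8, 24.4 and 31.2 in WT and 11.6, 36.7 and 27.2 FPKM in MED13cTg. Their log2 fold changes had SEs of 0.99, 1.12, 1.08, 0.65 and 0.44, each larger than the fold change itself.

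Slc2a1 was the member whose genotypes did not overlap in WAT. It was at 14.6, 11.6 and 13.2 in WT and 5.23, 7.79 and 11.5 FPKM in MED13cTg. MED13cTg replicate 3 was just under the lowest WT library, and the other MED13cTg libraries were lower still. The log2 fold change was -0.68 ± 0.31 (SE), with an unadjusted limma p of 0.0753 and an adjusted p of 0.738. With 1 library left out it ranged from -0.93 to -0.42, the latter without MED13cTg replicate 1, and it was -0.17 with MED13cTg replicate 3 as the only MED13cTg library. Slc2a1 was below WT without overlap in both tissues, though adjusted significance was reached in neither.

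Aldoc was at 38.9, 28.9 and 36.8 in WT and 7.1, 0.648 and 34.6 FPKM in MED13cTg fat, which gave it the lowest log2 fold change of the members, -2.19 ± 1.09 (SE). Replicate 3 was inside the WT range, the low values were those of replicates 1 and 2, and the adjusted p was 0.738. Ldhb was at 233, 214 and 259 in WT and 169, 74.9 and 231 FPKM in MED13cTg, and Ldha at 179, 343 and 262 in WT and 546, 626 and 263 FPKM in MED13cTg. G6pdx, a source of NADPH for fat synthesis, was at 102, 105 and 122 in WT and 22.6, 102 and 109 FPKM in MED13cTg. Low in replicate 1 only, Pfkl was at 36.4, 41.5 and 47.5 in WT and 10.8, 40.8 and 36.8 FPKM in MED13cTg, and Pgk1 at 22.8, 24.1 and 26.9 in WT and 7.93, 26.6 and 24.7 FPKM in MED13cTg.

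Gpi1 was the steadiest of the members in WAT, at 145, 142 and 147 in WT and 122, 154 and 139.5 FPKM in MED13cTg. Tpi1 was at 178, 226 and 235 in WT and 164, 244 and 191 FPKM in MED13cTg, and Pkm at 204, 196 and 227 in WT and 132, 163 and 216 FPKM in MED13cTg. Pgam1 ranged over the 6 libraries from 13.8 to 29.2 FPKM, Eno1 from 65.7 to 134 FPKM and Gapdh from 3.29 to 6.46 FPKM. Slc16a1 ranged from 7.98 to 16.5 FPKM, Fbp2 from 1.67 to 7.13 FPKM and Eno2 from 0.732 to 2.73 FPKM. Hk3 was at 1.65 FPKM in MED13cTg replicate 2 and under 1 FPKM in the other 5 libraries. Without MED13cTg replicates 1 and 2, a single MED13cTg library stood against 3 WT libraries and had to be assumed to vary as they do. The median log2 fold change of the members was then -0.00057.

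In WT mice the shares of Slc2a4, Pfkm, Eno3, Pgam2, Ldhb and Pfkfb2 in their families stood far apart in the 2 tissues, while those of Hk2 and Aldoa were close. Shares are percentages of the summed FPKM of those isoforms of a family that are members, in 1 library, and the 2 tissues stand side by side without a test because their tables were estimated separately. In the WT ventricles GLUT4 (Slc2a4) made up 95.2 ± 1.01% (SD, n = 3) of the sum of Slc2a1, Slc2a3 and Slc2a4, against 49.4 ± 9.12% in WT WAT. Other transporters are not in this sum, such as Slc2a8 (GLUT8), which averaged 15.4 FPKM in WT WAT. Muscle phosphofructokinase (Pfkm) was 87.3 ± 2.02% of its family in ventricles and 19.2 ± 1.71% in WAT, where the liver type Pfkl led with 65.9 ± 1.91%. Muscle enolase (Eno3) was 97.9 ± 0.211% in ventricles and 23 ± 1.43% in WAT. Members with near-identical processed copies, such as Eno1, Pgam1 and Ldha, have uncertain levels, and so have the shares in their families. The WT ventricles were thus dominated by the muscle isoforms, and the WT WAT libraries by Pfkl, Eno1 and Pgam1. In the WT WAT libraries the summed epididymis markers were above the summed adipocyte markers, and the part of the epididymis in these shares was not tested. In MED13cTg replicate 2, with the fewest epididymis messages, Pfkl, Eno1 and Pgam1 also led, at 55.0, 87.1 and 87.6%. There the Slc2a4 share was 82.0% and the Ldhb share 10.7%.

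Muscle phosphoglycerate mutase (Pgam2) was 98.3 ± 0.0274% of its family in WT ventricles and 26.7 ± 9.6% in WT WAT. The heart lactate dehydrogenase subunit Ldhb was 76.2 ± 1.3% in ventricles and 48.2 ± 9.15% in WAT. Pfkfb2 was 62.8 ± 6.67% of the PFKFB family in ventricles and 12.8 ± 1.39% in WAT, where Pfkfb1 and Pfkfb3 were nearly equal at 38.5 ± 2.3% and 36.9 ± 0.486%. The Hk2 shares were close to each other, at 60.5 ± 1.37% and 59.9 ± 2.57%. Slc16a1 was 97.8 ± 0.789% in ventricles and 70.7 ± 6.54% in WAT, and Aldoa was at 94.9% or more in every library of both tissues. In the WAT library of MED13cTg replicate 2, with the fewest epididymis messages, the Hk2 share was 76.2% and the Slc16a1 share 92.9%. Pfkfb3 was at 71.5% and Pfkfb1 at 25.6% there, so the WT values may not be those of fat alone.

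**Figure D5:**
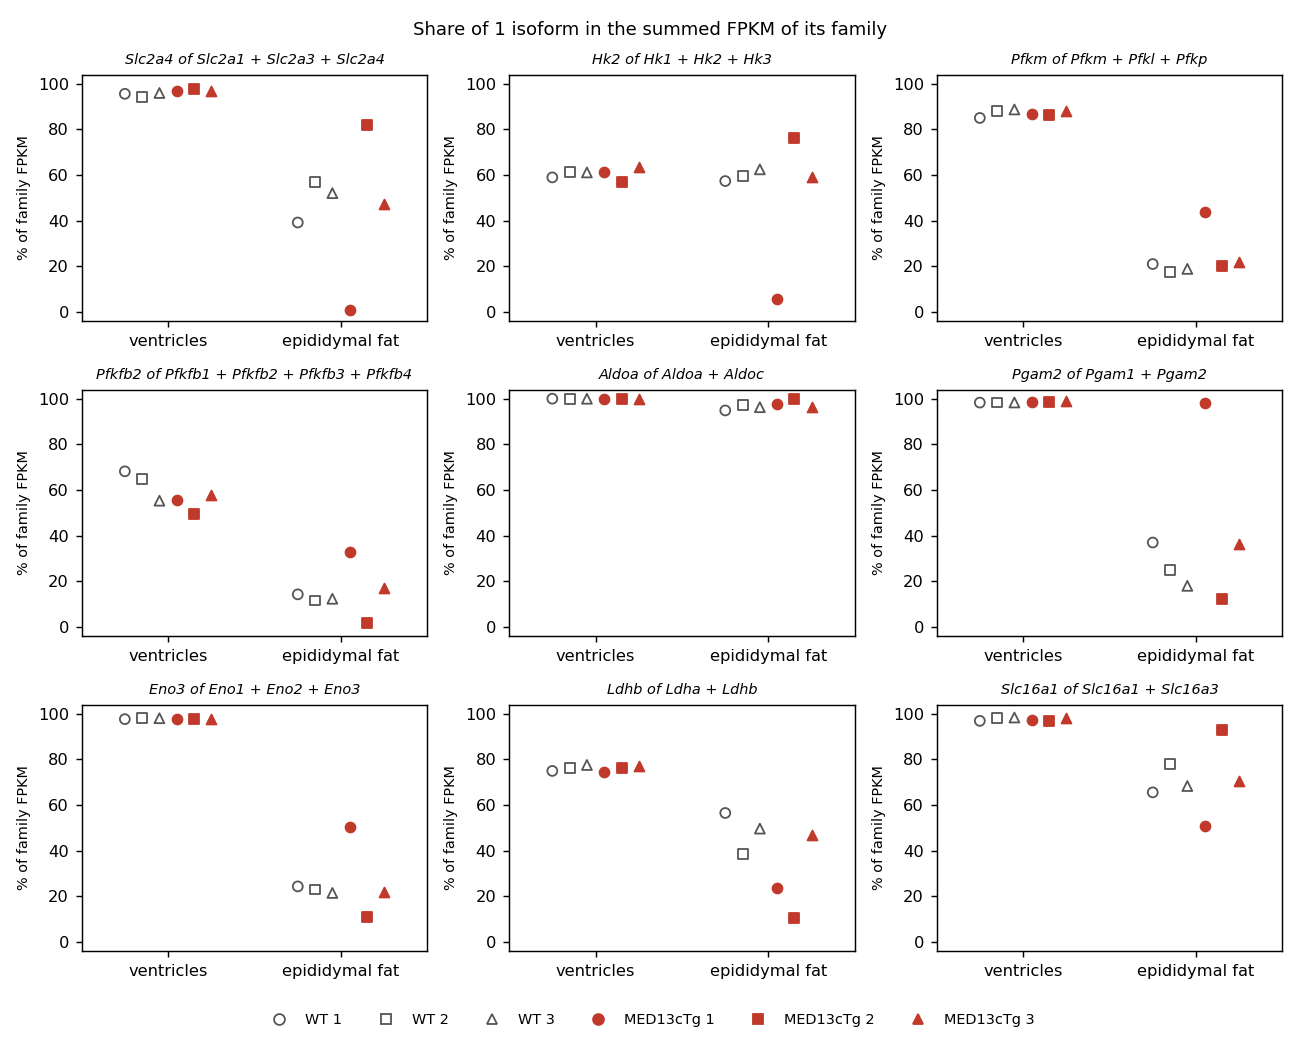
Share of 1 isoform in the summed FPKM of its family in each library, in percent, for 9 families in ventricles and WAT, with WT open and MED13cTg filled. Ventricle libraries sit close together except for Pfkfb2, which runs from 49.4 to 68.2%. In WAT the filled circle and square of MED13cTg replicates 1 and 2 lie far from the rest in most panels.

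In each family 1 isoform was tested between genotypes, and in ventricles 2 of these 9 shares did not overlap. The Slc2a4 share was 95.6, 94 and 95.9% in WT and 96.6, 97.5 and 96.6% in MED13cTg, a difference of means of 1.73 percentage points. The Slc2a1 share of the same family was 3.53, 5.1 and 3.47% in WT and 2.51, 1.72 and 2.54% in MED13cTg. The Pgam2 share was 98.30, 98.34 and 98.35% in WT and 98.36, 98.77 and 98.78% in MED13cTg, a difference of means of 0.307 points. The rest of its family is Pgam1, whose level is uncertain. Slc2a1 and Pgam1 were already among the members without overlap, so these shares are not separate from those results. For the Slc2a4 and Pgam2 shares the exact two-sided permutation p was 0.1, the smallest that 3 against 3 libraries can give. It was 0.72 when adjusted over 18 shares. The Pfkfb2 share was 68.2, 64.9 and 55.4% in WT and 55.5, 49.4 and 58% in MED13cTg, with an exact permutation p of 0.3. Hk2, Pfkm, Aldoa, Eno3, Ldhb and Slc16a1 differed between genotypes by at most 0.367 points in their mean ventricle shares, and their groups overlapped. Among the untested isoforms, singled out after their values were seen, the Hk3 share was 0.674, 0.614 and 0.532% in WT and 1.23, 1.07 and 0.947% in MED13cTg. The Pfkfb3 share was also higher without overlap, at 5.7, 4.41 and 6.03% in WT and 8.47, 8.14 and 6.2% in MED13cTg. The Pfkp share was lower without overlap, at 5.62, 4.77 and 4.79% in WT and 3.88, 4.27 and 3.59% in MED13cTg.

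In WAT 0 of the 9 tested shares separated the genotypes. The Slc2a4 share was 39.2, 56.9 and 52.1% in WT and 0.804, 82 and 47.5% in MED13cTg. The Hk2 share was 57.4, 59.8 and 62.5% in WT and 5.63, 76.2 and 59% in MED13cTg, and the Pgam2 share 37, 24.9 and 18.1% in WT and 98, 12.4 and 36.3% in MED13cTg. In replicate 1 Slc2a4 and Hk2 were thus small parts of their families, and Pgam2 was nearly all of its own. Hk2 itself was at 11.6 and Slc2a4 at 3.89 FPKM there, beside Hk1 at 194 and Slc2a3 at 475 FPKM. The Ldhb share was 56.6, 38.4 and 49.7% in WT and 23.7, 10.7 and 46.8% in MED13cTg, with an exact permutation p of 0.2. The Pfkm share was 21, 17.7 and 18.9% in WT and 43.7, 20 and 21.7% in MED13cTg, also at p = 0.2 by the exact permutation test. The other 4 shares had exact permutation p-values of 0.2 or more, and the adjusted value was 0.72 or more for all 9. Of the untested isoforms, again singled out after their values were seen, the Pfkl share was 64.4, 65.3 and 68% in WT and 7.36, 55 and 62.5% in MED13cTg. The Pfkfb1 share was 36.1, 40.7 and 38.7% in WT and 7.77, 25.6 and 34.7% in MED13cTg, so that both were below WT without overlap and lowest in replicate 1.

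A further 40 genes of the pathway, from other sugar transporters to the pentose phosphate enzymes and regulators such as Txnip, were counted in the same fits. In ventricles 31 were tested, 15 were higher and 16 lower, and none passed the adjusted threshold. The lowest unadjusted p among them belonged to Slc2a12, the transporter GLUT12, at 2.44, 3.27 and 2.79 in WT and 1.74, 1.4 and 2.06 FPKM in MED13cTg hearts. Its groups did not overlap, and its limma log2 fold change was -0.49 ± 0.15 (SE) with an adjusted p of 0.966. No other of the 31 had an unadjusted p under 0.05, and without overlap 1 was higher, or 3.23% beside 3.46% of all genes, and 2 were lower, or 6.45% beside 5.85%. In WAT 33 were tested and by sign 10 were higher and 23 lower, beside 7591 and 7376 of all genes. None had an unadjusted p under 0.05. Without overlap 2 were higher, or 6.06% beside 4.88% of all genes, and 1 was lower, or 3.03% beside 7.8%.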

How the data were processed

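RNA was sequenced from 12 libraries, 3 mice per genotype and tissue. Per the submitters' processing notes the reads were aligned with TopHat to mm9, and per the methods FPKM was estimated with Cufflinks at default settings. The authors deposited 1 table per tissue of 23042 entries with a value in FPKM per library. Columns of the authors' group means and of their fold (a ratio) were not used here. Symbols of several genes are joined in 341 entries of each table, none of them a member, and 1 unnamed column of the WAT table was not used. The labels give 1 µg of RNA per library and an age of 6 weeks, and the methods differ on both. Absolute depth is unknown from FPKM.

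Entries averaging 1 FPKM or more across a tissue's 6 libraries were fitted on log2(FPKM + 1) with limma 3.58.1 (R 4.3.3; lmFit, eBayes with a trend), no covariate, and Benjamini-Hochberg adjustment over all of them at 0.05. Fold changes on this scale understate changes of low genes. The fit was tested on simulated data in which every library varied as the WT libraries do. The wider spread of the MED13cTg WAT libraries was thus not covered. Isoform shares are percentages of the summed FPKM of a family, compared by exact two-sided permutation tests adjusted over 18 shares. Python 3.11.15, numpy 2.4.6, pandas 2.3.3, scipy 1.17.1 and matplotlib 3.10.9 were used. All 31 members are named, along with Med13, the spermatid isoforms and other pathway genes with an unadjusted p under 0.05. The members and lists were chosen with earlier results of these data known.

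Replicate numbers come from the labels. Deviations from the group means of WT and MED13cTg libraries with the same number correlated at 0.347, 0.304 and 0.144 in WAT. All were above 0.1, so the numbers may pair the samples there. Pairs with unlike numbers ranged from -0.417 to 0.168, and WT 3 with MED13cTg 2, at 0.168, exceeded the pair of both replicates 3. The correlations thus do not settle a pairing. The main fits and the permutation tests used none, and the replicate block was an alternative. In ventricles the correlations were 0.0855, -0.192 and 0.14. Alternatives were median-of-ratios or quantile scaling, a pseudocount of 0.1, filters at 0 and 5 FPKM, no trend, array weights, the replicate block, the ventricle library cluster, and libraries left out.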

Additional observations from a re-analysis of the deposited data

Results flagged for a closer look

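Pfkm and Ldha lay on opposite sides of the WT mean in the 2 tissues, though their genotypes overlapped in both. Every MED13cTg ventricle library was below the mean of the WT libraries on the log2(FPKM + 1) scale and every MED13cTg WAT library was above it, which is what drew attention to them. The log2 fold change of Pfkm was -0.25 in ventricles and 0.89 in WAT, and that of Ldha was -0.17 in ventricles and 0.82 in WAT. How many of all genes lie on opposite sides in this way was not counted. Neither gene passed the test in either tissue, and the difference between the tissues was not tested because the tables were estimated separately. In WAT, replicate 3 was at 12.8 FPKM for Pfkm, inside the WT range of 11.2 to 13.2 FPKM, and at 263 FPKM for Ldha, next to the middle WT library at 262 FPKM. Pfkm was at 63.9 FPKM in replicate 1, the library with the highest germ cell sum, and without that library its log2 fold change in WAT was 0.17. For Ldha the lowest value with 1 library left out was 0.58. With replicate 3 as the only MED13cTg library, the values were 0.076 for Pfkm and 0.057 for Ldha.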

How the results depend on the processing

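No member passed the adjusted threshold in either tissue under any setting tried, and this held over 417 values for 28 members in ventricles and 447 values for 30 members in WAT. The log2 fold changes of 15 members in ventricles and 7 in WAT kept their sign in every setting, Slc2a1 and Pfkm among both. Not every setting could turn a sign. Dropping the trend or adding the replicate block leaves the fold change as it is. For a gene without overlap, such as Slc2a1, leaving out libraries cannot turn it either. Over all genes, those called lower in ventricles numbered 1 with no filter on expression, with a filter at 5 FPKM and with the replicate block, and with limma array weights 7 were called higher and 8 lower. Left out in turn, the ventricle libraries gave 3 to 6 genes called higher and 0 to 4 called lower, the 0 coming without MED13cTg replicate 2. In WAT the genes called lower fell to 0 with no filter, with array weights and with the replicate block. Without both MED13cTg replicates 1 and 2, which leaves 1 MED13cTg library assumed to vary like the 3 WT libraries, 17 genes were called higher in WAT. With 1 library left out 0 to 2 were called higher and 0 to 4 lower, the latter at 0 without any 1 of the MED13cTg libraries. Depth is unknown, and 3 mice per genotype and the spread between the MED13cTg WAT libraries limit what could be called. The replicate block changed no call on a member. The causes of these changes were not tested.

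With the library cluster as a covariate, the log2 fold change in ventricles turned to -0.11 for Aldoa, -0.021 for Eno1, -0.0078 for Pfkfb4 and -0.025 for Slc16a3. With limma array weights, the log2 fold change in ventricles turned to 0.085 for G6pdx, -0.0040 for Slc2a3 and -0.0024 for Slc2a4. With quantile normalization, the log2 fold change in ventricles turned to -0.020 for Slc2a3 and 0.039 for Tpi1. Leaving out 1 library at a time turned the sign of 12 members in ventricles, with ranges of -0.26 to 0.23 for Aldoa, -0.044 to 0.14 for Eno1, -0.16 to 0.049 for Eno3, -0.098 to 0.062 for G6pdx, -0.020 to 0.16 for Pfkfb1, -0.0066 to 0.21 for Pfkfb4 and -0.015 to 0.12 for Pfkl. The further ranges were -0.18 to 0.028 for Pkm, -0.053 to 0.052 for Slc16a1, -0.072 to 0.13 for Slc2a3, -0.046 to 0.079 for Slc2a4 and -0.15 to 0.0042 for Tpi1. With limma array weights, the log2 fold change in WAT turned to 0.16 for Aldoa, 0.26 for Eno2, -0.013 for Eno3, 0.13 for Pfkfb1, 0.029 for Pgam1, -0.31 for Slc16a3 and 0.26 for Slc2a4. With median-of-ratios scaling, the log2 fold change in WAT turned to 0.023 for Eno2 and 9.6e-07 for Gpi1. With a pseudocount of 0.1, the log2 fold change in WAT turned to -0.023 for Slc16a3. With quantile normalization, the log2 fold change in WAT turned to 0.15 for Aldoa and 0.030 for Tpi1. With MED13cTg replicates 1 and 2 left out together, the log2 fold change in WAT turned to 0.051 for Aldoa, 3.3e-05 for Aldoc, 0.090 for Eno2, 0.0061 for Fbp2, -0.38 for Pfkfb3, 0.11 for Pfkfb4, -0.0099 for Pfkp, 0.011 for Pgk1, 0.050 for Pkm, -0.20 for Slc16a1 and -0.15 for Slc16a3. Leaving out 1 library at a time turned the sign of 18 members in WAT, with ranges of -0.71 to 0.46 for Aldoa, -0.0038 to 0.44 for Eno1, -0.27 to 0.29 for Eno2, -0.22 to 0.81 for Eno3, -0.14 to 0.022 for Gpi1, -0.39 to 1.69 for Hk1 and -0.60 to 0.19 for Hk2. The further ranges were -1.56 to 0.65 for Pfkfb1, -0.12 to 0.39 for Pfkfb2, -0.73 to 1.42 for Pfkfb3, -0.47 to 0.38 for Pfkfb4, -0.40 to 0.11 for Pgam1, -0.15 to 3.37 for Pgam2 and -0.75 to 0.062 for Pgk1. The further ranges were -0.63 to 0.65 for Slc16a3, -0.11 to 2.67 for Slc2a3, -1.25 to 0.75 for Slc2a4 and -0.25 to 0.030 for Tpi1.

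Shares are given here as MED13cTg minus WT, in percentage points. The share difference in ventricles turned to -0.00496 for Aldoa, 0.155 for Eno3, 0.376 for Ldhb, 1.42 for Pfkm and 0.241 for Slc16a1 with the comparison kept within the library cluster of WT replicate 1. The share difference in ventricles turned to 0.247 for Ldhb with the comparison kept within the library cluster of WT replicates 2 and 3. With 1 library left out it ranged from -1.31 to 1.88 for Hk2, -0.939 to 0.435 for Ldhb and -1.52 to 0.338 for Pfkm in ventricles. The share difference in WAT turned to -5.88 for Pfkfb2 and -1.85 for Slc16a1 with the share of the summed group FPKM in place of the mean of shares. The share difference in WAT turned to -1.23 for Eno3 and -0.283 for Slc16a1 with MED13cTg replicates 1 and 2 left out together. With 1 library left out it ranged from -6.55 to 13.2 for Eno3, -27.6 to 7.72 for Hk2, -3.22 to 12.2 for Pfkfb2, -2.31 to 40.5 for Pgam2, -9.96 to 11 for Slc16a1 and -25.2 to 15.4 for Slc2a4 in WAT.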
